A study of Mus musculus with 8 samples.

Results

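BI-9564 is a small molecule that occupies the bromodomains of BRD9 and BRD7, and the libraries described here are the 2 that received BI-9564 alone and the 2 that received its solvent, DMSO. They were taken by their labels and make up 4 of the 8 RNA-seq libraries of the experiment, and 10222 of 50600 gene names had a mean value of at least 5 over all 8 and were tested. All 8 libraries came from JUN TetON mouse embryonic stem cells (genotype c-Jun_TetOn_mESC, in OG2 transgenic cells of passage 12, a mixed strain of 129SVJ, C57B6 and CBA), kept without feeder cells in 2i medium with LIF and serum. Every group, DMSO included, had doxycycline at 2 µg/ml, which switches on JUN, so the DMSO libraries are JUN-induced cells and not resting stem cells. The groups were DMSO, PFI-3, BI-9564 and both compounds (P+B), for 6 h by the labels, with 2 libraries each. The labels give no dose for either compound, how much of each went into P+B is unsettled, and the legend of the study gives a longer JUN induction than compound exposure. The cells are a line with a doxycycline-driven transgene, and nothing says that the 2 libraries of a group came from separate cultures, so p-values measure only the spread between these libraries.

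BRD9 and BRD7 are subunits of BAF (SWI/SNF) chromatin remodelling complexes. BRD9 marks the non-canonical BAF complex, which also holds GLTSCR1 or GLTSCR1L, and BRD7 belongs to the PBAF complex with PBRM1 and ARID2. A bromodomain is a pocket that binds acetylated lysine, for example on histone tails, and a ligand in that pocket blocks this reading step without removing the protein. BRG1 (SMARCA4) is the ATPase that drives these complexes, and PFI-3, the other compound of the experiment, binds the bromodomains of SMARCA4, SMARCA2 and PBRM1. In embryonic stem cells the BAF complexes are known for holding open the enhancers of pluripotency genes, and AP-1, the dimer that JUN forms with its partners, is known for opening the enhancers of somatic genes. The question of the comparison is what blocking the BRD9 and BRD7 bromodomains alone does to the RNA of JUN-induced cells.

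The cells carried the markers of embryonic stem cells. All 12 markers of that list had a mean of at least 5, and their summed value was 3639 to 4703 with BI-9564 and 4017 to 5258 with DMSO. Of 10 fibroblast or feeder markers 0 reached a mean of 5, the sums were 3 to 4 and 3 to 8, and *Col1a2*, *Col3a1*, *Pdgfra*, *Dcn*, *Lum* and *Postn* were at 0 in all 4 libraries. Of 7 primitive endoderm markers 0 reached that level, with *Gata6*, *Sox7*, *Pdgfra* and *Foxa2* at 0. Of 6 trophoblast markers 1 did, and of 4 neural markers 2 did, with neural sums of 95 to 99 against 76 to 88. No marker of these lists was called in either direction. The deposited values are whole-number TPM that sum to 991574 to 991897 per library, and between 10285 and 10451 genes per library reached 5. The depth behind them is unknown, and so is the counting error. Across genes, the 2 libraries of a group had a Pearson correlation of 0.964 to 0.971 on the log2 scale and a median absolute difference of 0.17 to 0.19.

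The promoters of 3 genes that rose are shown because each holds a p53 response element, the site that the p53 protein binds. Those of 3 of the 12 called genes that fell most are shown because each holds an AP-1 motif, the site of JUN dimers. The sequences are the 250 bases before the start of transcription in RefSeq on GRCm38.p6, 5′ to 3′ on the strand of the gene, and the capitals mark the match. For *Cdkn1a* and *Ddc* 2 promoters were listed and the first was used, so distances from the start site hold for that promoter.
*Cdkn1a*, chr17:29090729-29090978, plus strand: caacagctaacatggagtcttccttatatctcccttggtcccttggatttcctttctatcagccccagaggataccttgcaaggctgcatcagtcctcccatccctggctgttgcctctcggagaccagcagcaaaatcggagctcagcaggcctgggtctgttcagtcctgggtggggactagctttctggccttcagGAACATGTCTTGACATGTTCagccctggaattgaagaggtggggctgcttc
*Ccng1*, chr11:40755287-40755536, minus strand: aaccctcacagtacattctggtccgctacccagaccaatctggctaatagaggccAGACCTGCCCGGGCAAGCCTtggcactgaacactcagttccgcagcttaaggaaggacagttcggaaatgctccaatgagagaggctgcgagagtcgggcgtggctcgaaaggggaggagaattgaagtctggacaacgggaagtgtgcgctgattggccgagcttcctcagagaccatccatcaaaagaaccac
*Zfp365*, chr10:67912663-67912912, minus strand: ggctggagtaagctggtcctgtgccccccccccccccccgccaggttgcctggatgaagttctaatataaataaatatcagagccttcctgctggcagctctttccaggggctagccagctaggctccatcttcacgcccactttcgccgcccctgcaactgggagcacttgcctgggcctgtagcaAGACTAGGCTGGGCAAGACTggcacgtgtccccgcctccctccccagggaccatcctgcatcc
*Fbp2*, chr13:62858401-62858650, minus strand: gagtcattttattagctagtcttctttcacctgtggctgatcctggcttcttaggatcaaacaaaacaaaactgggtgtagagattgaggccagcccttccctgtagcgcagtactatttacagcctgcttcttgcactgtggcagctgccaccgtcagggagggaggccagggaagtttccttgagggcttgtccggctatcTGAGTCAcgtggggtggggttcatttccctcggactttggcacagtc
*Krtdap*, chr7:30787655-30787904, plus strand: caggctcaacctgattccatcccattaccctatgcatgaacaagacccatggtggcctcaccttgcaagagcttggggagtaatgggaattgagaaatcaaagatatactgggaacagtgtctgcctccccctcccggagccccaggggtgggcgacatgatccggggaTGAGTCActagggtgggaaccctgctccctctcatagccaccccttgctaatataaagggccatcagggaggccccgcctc
*Ddc*, chr11:11898145-11898394, minus strand: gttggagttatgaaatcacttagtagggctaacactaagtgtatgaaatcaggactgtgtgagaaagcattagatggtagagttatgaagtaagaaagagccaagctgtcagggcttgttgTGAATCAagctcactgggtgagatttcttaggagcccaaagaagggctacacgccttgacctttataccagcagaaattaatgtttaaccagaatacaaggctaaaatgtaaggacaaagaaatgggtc

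The p53 response element was searched by its name, as a pair of adjoining consensus half-sites of 20 bases in all with at most 2 mismatches and its 4 fixed letters kept, and this search was added after the values of the genes were seen. The *Cdkn1a* match starts 51 bases before the start site and has 1 mismatch, that of *Ccng1* starts 195 bases before it and has 1 mismatch, and that of *Zfp365* starts 63 bases before it and has 2. Of 34 genes called higher that have a promoter in the table, these 3 (8.82%) held such a match. Of 71 genes called lower, 0 did, and of all 27025 promoters 0.27% did. The AP-1 motif TGANTCA, read on both strands, was in 9 of the 71 promoters of genes called lower (12.7%), in 2 of 34 of those called higher (5.88%), in 3.77% of the 7782 tested genes with a promoter and in 6.87% of all promoters. The other motifs were CRE (TGACGTCA) in 1.41% of lower and 8.82% of higher promoters, the E-box (CACGTG) in 7.04% and 11.8%, the sterol response element (TCACNCCAC) in 1.41% and 0%, and the antioxidant response element (TGACNNNGC) in 12.7% and 17.6%. Among all promoters these 4 had shares of 1.62%, 6.05%, 1.04% and 10.1%, and among the promoters of tested genes 3.07%, 9.09%, 0.989% and 12.1%. The *Fbp2* and *Krtdap* matches start 47 and 81 bases before the start site and that of *Ddc* 129 bases before it. A match is a run of letters, and no binding was measured here.

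With BI-9564, 50 genes were higher and 106 were lower than with DMSO with both an adjusted p-value below 0.05 and a change of 1.5-fold or more, which is 0.489% and 1.04% of the genes tested and 1.53% in both directions. The fit was limma on log2(value + 1) with the replicate number as a block and Benjamini-Hochberg adjustment, and fold changes are on that scale. The changes were modest, with a median fold of 1.75 among the genes that rose and 1.75 among those that fell. All 156 had the same sign in pair 1 and pair 2, and in 152 the 2 BI-9564 libraries did not overlap the 2 DMSO libraries. Of all tested genes, 22.9% lay apart upward and 18.3% downward. The call was made on these same values, so both counts follow largely from it and are not separate evidence. The 4 that overlapped were *Htra1*, *Krt42*, *Dgka* and *S100a6*, in which library 1 was above library 2 in both groups. The calls rest on all 8 libraries together: without the block 11 genes were called (0.108%), 3 higher and 8 lower and all among the 156, and leaving out any 1 of the 8 libraries left 0 or 1. An unadjusted p-value under 0.05 was reached by 2179 genes (21.3%) with the block and 1523 without it.

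**Figure D1:**
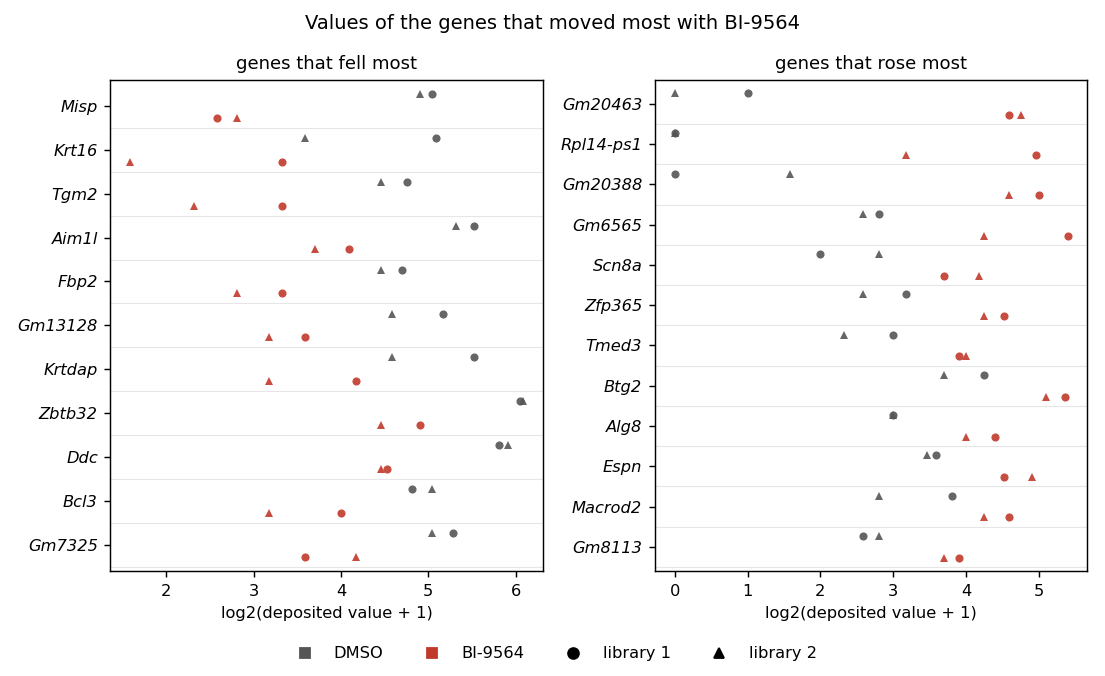
Values of 11 of the 12 called genes that fell most (left) and the 12 called genes that rose most (right), as log2(deposited value + 1) on the x axis, with 1 point per library, DMSO in grey and BI-9564 in red, library 1 as circles and library 2 as triangles. In all genes shown both BI-9564 libraries lie on the same side of both DMSO libraries, and *Krt16* and *Krtdap* also differ between library 1 and library 2.

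The called gene that fell most was *Misp*, which encodes an actin-bundling protein of the mitotic spindle and cell cortex. It had values of 32 and 29 with DMSO and of 5 and 6 with BI-9564, a log2 fold change of −2.28 ± 0.30 (SE, n = 2 per group) and an adjusted p-value of 0.0215 in limma. The 4 values did not overlap, and the gene lies at chr10:79820989-79830490 with no other annotated gene over it. *Tgm2*, a transglutaminase that crosslinks proteins, had 26 and 21 with DMSO and 9 and 4 with BI-9564, or −1.79 ± 0.26 (limma, adjusted p = 0.0252).

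The keratin gene *Krt16* and *Krtdap* were among the 12 largest falls of called genes. *Krt16*, a keratin of stressed epidermis, had 33 and 11 with DMSO and 9 and 2 with BI-9564 (log2 fold change −1.88 ± 0.28). *Krtdap*, a protein linked to keratinocyte differentiation, had 45 and 23 against 17 and 8 (−1.38 ± 0.16). In both genes library 1 was above library 2 in every group, and without the block their adjusted p-values were 0.379 and 0.304. *Krt18* and *Krt8*, the simple epithelial keratins that pair with each other, had 103 and 89 against 58 and 38, and 163 and 114 against 97 and 69. Their log2 fold changes were −1.01 ± 0.12 and −0.73 ± 0.12. Chosen after their values were seen, *Tgm1*, the transglutaminase of the cornified envelope, had 93 and 76 against 44 and 39 and *Dsp*, the desmosome linker desmoplakin, 48 and 56 against 27 and 32. Both were called lower.

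Of the other large falls, *Zbtb32*, a zinc finger repressor, had 65 and 67 with DMSO and 29 and 21 with BI-9564 (−1.38 ± 0.16, limma, adjusted p = 0.0164). *Bcl3*, a nuclear IκB protein that works with NF-κB, had 27 and 32 against 15 and 8 (−1.34 ± 0.26). *Fbp2*, a fructose bisphosphatase of gluconeogenesis, had 25 and 21 against 9 and 6 (−1.52 ± 0.25). In these 3 genes both BI-9564 libraries lay below both DMSO libraries. *Aim1l* had 45 and 39 against 16 and 12, *Gm13128* 35 and 23 against 11 and 8, and *Gm7325* 38 and 32 against 11 and 17.

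The genes below are the 11 that were called both with and without the block. *Pcolce*, an enhancer of procollagen processing, had 290 and 251 with DMSO and 135 and 126 with BI-9564, and its log2 fold change of −1.04 ± 0.07 had the smallest adjusted p-value of the comparison (limma, 0.00757, and 0.0304 without the block). It lies at chr5:137605103-137613784, where the annotation also has *Fbxo24* on the same strand. *Ddc*, the aromatic amino acid decarboxylase, had 55 and 59 against 22 and 21 (−1.37 ± 0.14). *Pecam1*, a surface adhesion molecule that marks naive stem cells, had 53 and 53 against 28 and 27 (−0.92 ± 0.10). In these 3 genes every BI-9564 library was below every DMSO library, by more than the 2 libraries of a group differed.

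*Tnfrsf8*, the receptor CD30, had 33 and 30 against 13 and 14, and *Mvp*, the major vault protein, had 60 and 61 against 28 and 27. *Prr13* had 87 and 85 against 43 and 41. *Akap12*, a scaffold of protein kinase A, had 164 and 149 against 95 and 86, and *Myadm*, a membrane protein, had 296 and 310 against 195 and 192. These 5 fell by 0.64 to 1.16 on the log2 scale, with adjusted p-values of 0.0141 to 0.0186 in limma. Of the genes that rose in both fits, *H1fx*, a linker histone, had 52 and 52 against 103 and 94, or 0.91 ± 0.10. The remaining 2 were *Gm20388* and *Gm20463*, described below.

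Of the called genes that rose most, *Btg2*, an antiproliferative target of p53, had 18 and 12 with DMSO and 40 and 33 with BI-9564 (1.25 ± 0.18, limma, adjusted p = 0.0258). *Zfp365*, a gene linked to genome stability, had 8 and 5 against 22 and 18 (1.51 ± 0.18, adjusted p = 0.0186 in limma), and its promoter is one of those shown above. *Espn*, the actin bundler espin, had 11 and 10 against 22 and 29 (1.19 ± 0.19). The groups did not overlap in any of the 3. *Scn8a*, a voltage-gated sodium channel, had 3 and 6 against 12 and 17, *Tmed3*, a cargo receptor of the secretory pathway, 7 and 4 against 14 and 15, *Alg8*, a glucosyltransferase of N-glycan assembly, 7 and 7 against 20 and 15, and *Macrod2*, an ADP-ribose hydrolase, 13 and 6 against 23 and 18. These values are low, so a change of 1 unit weighs more in them.

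The 4 largest rises among the called genes were of gene models that share their place with other genes. *Gm20463*, an antisense model of chr17:34601151-34601576 opposite *Rnf5*, had 1 and 0 with DMSO and 23 and 26 with BI-9564, and *Gm20388* had 0 and 2 against 31 and 23. *Gm20388* is a read-through model that spans chr8:119910841-124345722 and many genes in it. *Rpl14-ps1*, a processed pseudogene, was listed at 0 in both DMSO libraries and had 30 and 8 with BI-9564, and *Gm6565*, also a processed pseudogene, had 6 and 5 against 41 and 18. The size of such a change depends on the pseudocount, and no fold is given. With PFI-3 the values were 5 and 7 for *Gm20463*, 9 and 8 for *Gm20388*, 3 and 0 for *Rpl14-ps1* and 18 and 15 for *Gm6565*. Reads of such models cannot be told apart from those of the genes they overlap or copy. Of the 50 genes called higher, 44 were protein coding in the annotation, 19 of them with another gene over them, and of the 106 called lower, 100 were, 44 of them with another gene over them. *Gm8113*, the last of the 12 largest rises, had 5 and 6 against 14 and 12.

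Of all lists, that of the p53 response had the highest median and the most genes called higher. Cells respond to DNA damage and other stress through p53, a transcription factor that raises cell cycle inhibitors, its own inhibitor MDM2 and cell death genes. Of 27 tested genes of the list, 5 were called higher and 0 lower, against 0.489% and 1.04% of all genes, and their median log2 fold change was 0.50, against 0.02 for all tested genes. Of the 27, 21 were above 0, and in 20 both BI-9564 libraries were above both DMSO libraries, against 22.9% of all genes. Leaving out single libraries moved the median between 0.41 and 0.59.

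*Cdkn1a*, the cell cycle inhibitor p21, had 90 and 77 with DMSO and 148 and 141 with BI-9564 (0.79 ± 0.11, limma, adjusted p = 0.0251). *Ccng1*, cyclin G1, had 112 and 91 against 173 and 173 (0.77 ± 0.14). *Trp53inp1*, a cofactor of p53 in stress, had 45 and 28 against 73 and 55 (0.82 ± 0.13). In each of these the lower treated library was above the higher DMSO library. *Sesn2*, a stress sensor that restrains mTORC1, had 62 and 43 against 88 and 80 (0.69 ± 0.12), and with *Btg2* it completes the 5 genes called. None of the 5 passed without the block, where their adjusted p-values were 0.0799 to 0.269.

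Other members were chosen after their values were seen. *Trp53*, the gene of p53 itself, had 459 and 475 with DMSO and 449 and 462 with BI-9564, a log2 difference of −0.04 ± 0.06. *Mdm2* had 142 and 96 against 187 and 149 and did not pass (0.51 ± 0.10, limma, adjusted p = 0.0509). *Plk2* and *Ei24* were higher by 0.50 and 0.50, with adjusted p-values of 0.040 and 0.0393 in limma but under the fold threshold. *Plk3* and *Gadd45a* went the other way, with 36 and 35 against 25 and 22 for *Plk3* and 87 and 112 against 62 and 76 for *Gadd45a*. Outside the list, *Ppm1d*, a phosphatase that p53 induces, had 19 and 18 against 32 and 30, and *Rbm38*, an RNA-binding target of p53, had 112 and 107 against 172 and 162, and both were called higher. RNA was the only readout, and p53 protein was not measured.

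**Figure D2:**
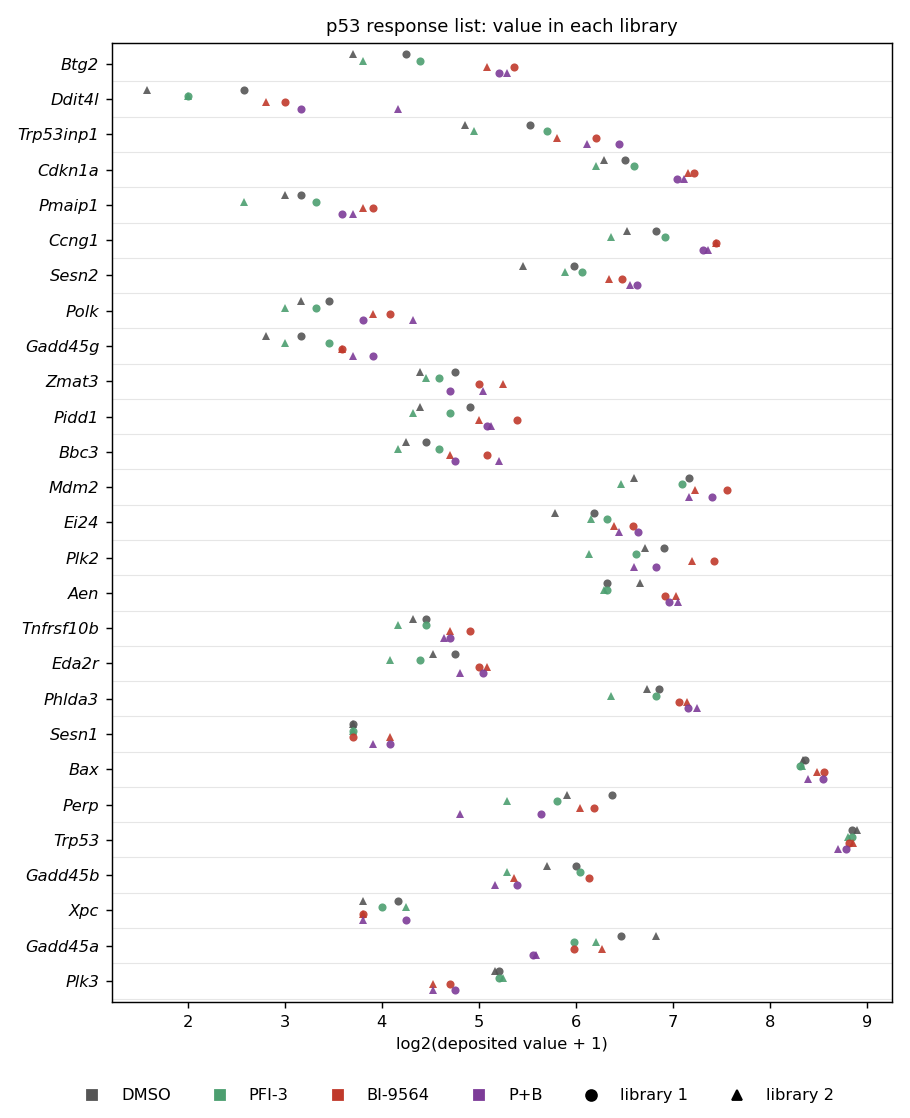
Values of the 27 tested genes of the p53 response list, as log2(deposited value + 1) on the x axis, with 1 point per library, ordered by the log2 fold change between BI-9564 and DMSO, colours for the 4 groups and shapes for library 1 and library 2. In *Btg2*, *Cdkn1a* and *Ccng1* the 2 BI-9564 and the 2 P+B libraries lie above the DMSO and PFI-3 libraries, and *Trp53* has about the same value in all 8.

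The genes called on the adhesion and extracellular matrix lists were all lower with BI-9564. Of 38 tested genes of cell-substrate adhesion and the cytoskeleton, 0 were called higher and 3 lower, 34 were below 0, and the median log2 fold change was −0.25. Of all 10222 tested genes, 1.04% were called lower and 4691 were below 0, and the median was 0.02. *Itga3* and *Itga5*, integrin α chains that bind laminin and fibronectin, had 61 and 75 against 36 and 39, and 71 and 94 against 42 and 54. *Tns3*, a tensin of focal adhesions, had 42 and 44 against 28 and 24. Their log2 fold changes were −0.84 ± 0.13, −0.77 ± 0.10 and −0.71 ± 0.14, with adjusted p-values of 0.0318, 0.0215 and 0.0443 in limma. In all 3 the groups did not overlap, and 8 genes of the list had an adjusted p-value under 0.05 at any fold, against 284 of all 10222.

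Of 23 tested genes of the extracellular matrix and its remodelling, 0 were called higher and 4 lower, 17 were below 0, and the median was −0.25. For this list and the next, the shares of all 10222 tested genes were 0.489% called higher and 1.04% called lower, with 4691 below 0. *Timp1*, a metalloproteinase inhibitor, had 194 and 191 against 113 and 115 (−0.75 ± 0.13). *Spp1*, osteopontin, had 578 and 446 against 364 and 297 (−0.63 ± 0.06), with adjusted p-values of 0.0335 and 0.0141 in limma for the pair. Every treated library was below every DMSO library in both genes. *Hbegf*, a heparin-binding ligand of the EGF receptor, was the gene called on the list of ERK feedback and immediate early genes (0 higher and 1 lower of 20, median −0.08), with 45 and 32 against 19 and 15 (−1.12 ± 0.15, limma, adjusted p = 0.0216). *Ier3* of the same list had 20 and 22 against 15 and 7 and did not pass (limma, adjusted p = 0.122).

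*Jun* itself was at 1970 and 2877 with DMSO and at 2071 and 3011 with BI-9564, a log2 difference of 0.07 ± 0.04 (limma, adjusted p = 0.339). Library 2 was above library 1 in both groups, and the 2 groups overlapped. The deposited value does not tell the transgene from the endogenous gene. Of 12 tested genes of the AP-1 family 0 were called, against 1.53% of all tested genes, and the median was −0.00. *Junb*, a JUN-related AP-1 subunit, had 48 and 45 against 31 and 25 and did not pass (−0.72 ± 0.15, limma, adjusted p = 0.054), and *Jund*, chosen after its values were seen, had 367 and 310 against 290 and 253, with an adjusted p-value of 0.0335 in limma and a change under the fold threshold (−0.32 ± 0.05).

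Of the 6 JUN targets that the study names, 3 reached the level for testing and 0 were called, against 1.53% of all tested genes. *Fosl1*, the AP-1 subunit FRA-1, had 47 and 67 with DMSO and 28 and 43 with BI-9564 (−0.68 ± 0.23, limma, adjusted p = 0.151). *Anxa1*, annexin A1, had 63 and 52 against 45 and 40 (−0.42 ± 0.16, adjusted p = 0.194 in limma). *Fosl2*, the subunit FRA-2, had 35 and 34 against 35 and 33 (−0.02 ± 0.17). Both treated libraries were below both DMSO libraries for *Fosl1* and *Anxa1*, and *Fosl2* overlapped. By RT-PCR, the paper reports that either inhibitor or their combination significantly blocked activation of JUN targets, among them *Anxa1* and *Fosl2*. That is another assay with its own replicates, and 2 libraries per group leave wide limits here.

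**Figure D3:**
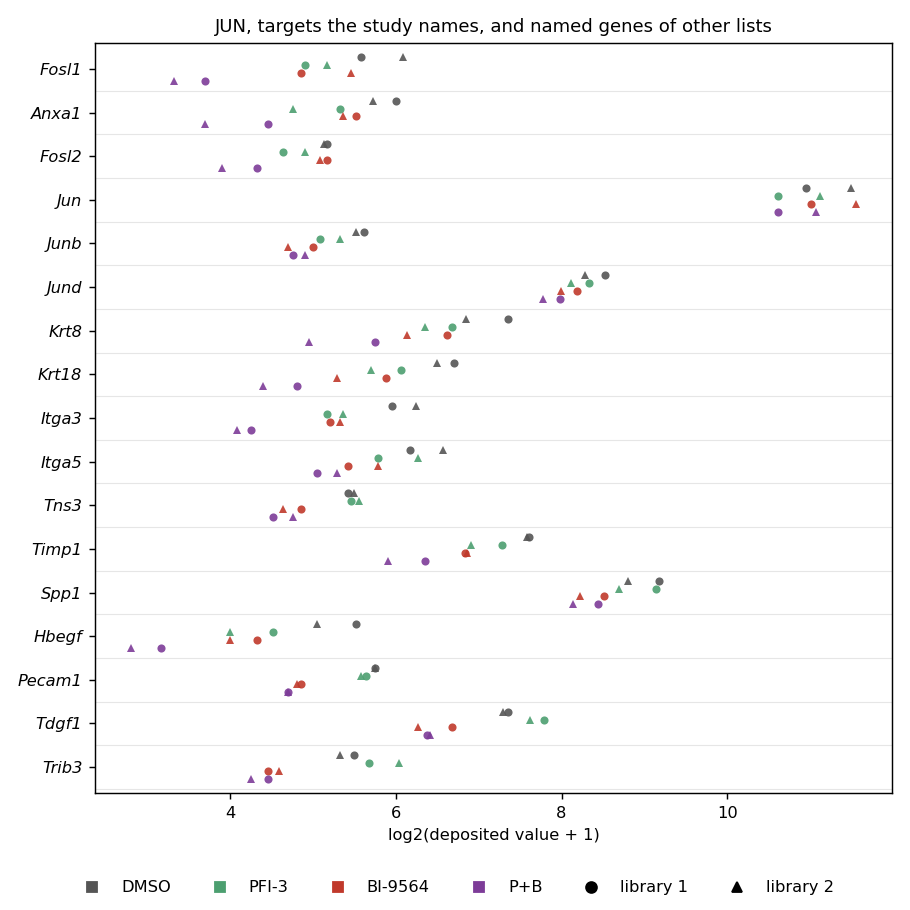
Values of *Jun*, other AP-1 genes, the tested JUN targets of the study and named genes of other lists, as log2(deposited value + 1) on the x axis, with 1 point per library, colours for the 4 groups and shapes for library 1 and library 2. *Jun* overlaps between BI-9564 and DMSO, *Itga3* lies close together with BI-9564 and PFI-3, and *Pecam1*, *Spp1* and *Tdgf1* lie apart from both DMSO and PFI-3.

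Of 26 tested naive pluripotency genes, 0 were called higher and 1, *Pecam1*, lower, against 1.04% of all tested genes called lower, 22 were below 0, and the median was −0.17. *Fgf4*, the growth factor that primes stem cells for differentiation, had 44 and 33 with DMSO and 31 and 17 with BI-9564 and did not pass (−0.70 ± 0.19, limma, adjusted p = 0.100). Of 12 tested genes of the formative and primed state, 1 was called lower. This was *Tdgf1*, the Nodal coreceptor Cripto, with 163 and 156 against 101 and 76 (−0.86 ± 0.11, limma, adjusted p = 0.0205). *Zic2* of that list had 6 and 6 against 9 and 13 and did not pass (limma, adjusted p = 0.109), and the median was −0.22. Of 7 tested lineage-specifying genes the 2 keratins *Krt8* and *Krt18* were called lower, while the median was 0.12, of the opposite sign, and moved from −0.10 to 0.34 when single libraries were left out.

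The transcripts of the proteins that BI-9564 binds were not called. *Brd9* had 25 and 25 with DMSO and 27 and 21 with BI-9564, a log2 difference of −0.07 ± 0.14, and *Brd7* had 90 and 66 against 68 and 90, or 0.02 ± 0.17. Of 24 tested BAF genes 0 were called in either direction (limma), against 1.53% of all tested genes. None had an adjusted p-value under 0.05 at any fold, against 284 of all 10222, and the median was 0.08. At these shares a list of this size with 0 calls cannot be told from other genes. The non-canonical BAF subunits *Gltscr1* and *Gltscr1l* differed by 0.06 ± 0.22 and −0.12 ± 0.19. *Smarca4*, the ATPase BRG1, differed by 0.13 ± 0.07, *Smarcc1* by −0.08 ± 0.07, *Smarcc2* by −0.06 ± 0.12 and *Smarcd1* by 0.01 ± 0.09. *Smarcd2* differed by −0.15 ± 0.15, *Smarcd3* by 0.21 ± 0.23, *Smarcb1* by 0.21 ± 0.09, *Smarce1* by 0.09 ± 0.09 and *Actl6a* by 0.02 ± 0.07. *Ss18* differed by 0.13 ± 0.09.

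The subunits of PBAF differed as little, with *Pbrm1* at 0.10 ± 0.10, *Arid2* at 0.14 ± 0.15 and *Phf10* at 0.09 ± 0.13. The canonical subunits *Arid1a*, *Arid1b*, *Dpf1* and *Dpf2* were at 0.09 ± 0.07, 0.45 ± 0.19, 0.33 ± 0.20 and 0.05 ± 0.08, and the accessory *Bcl7a*, *Bcl7b* and *Bcl7c* at 0.47 ± 0.19, −0.24 ± 0.16 and 0.07 ± 0.09. The highest of these, *Bcl7a*, had 9 and 10 against 13 and 14 (limma, adjusted p = 0.208).

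**Figure D4:**
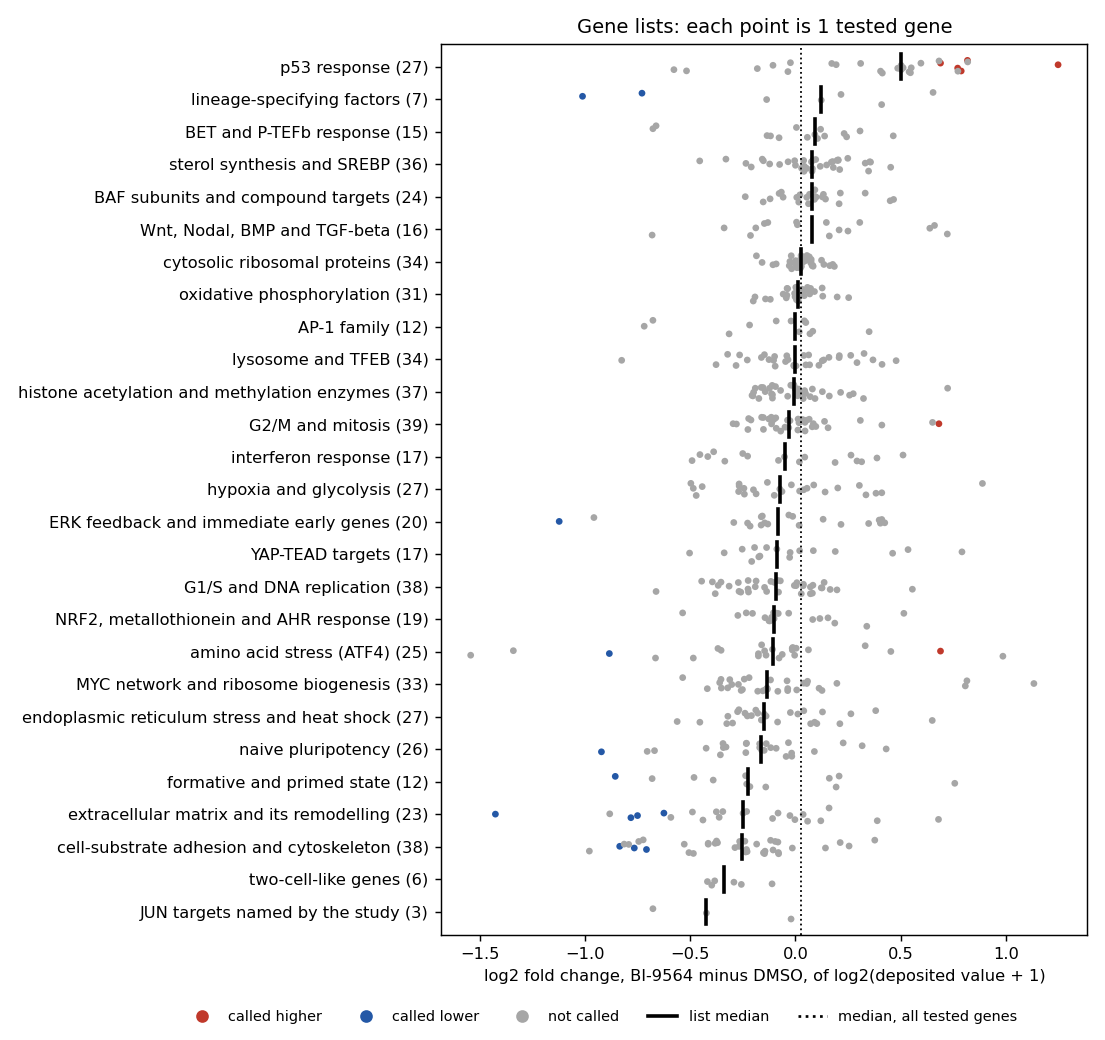
Log2 fold change between BI-9564 and DMSO on the x axis for every tested gene of the 27 lists, with the number tested in brackets, genes called higher in red, genes called lower in blue, the others in grey, a bar at each list's median and a dotted line at the median of all tested genes. The p53 response list has its median at 0.50, above all other lists, and the adhesion and matrix lists have theirs at −0.25.

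The same compound was also added on top of PFI-3, which compares P+B with PFI-3 in 4 libraries that the comparison with DMSO does not use, although both share replicate numbers and are fitted with the same spread. There 106 genes were called higher (1.04%) and 245 lower (2.4%), or 27 and 107 without the block. Of the 106 genes lower with BI-9564 alone, 78 (73.6%) were called lower again and 0 higher, and 105 had the same sign, with *Senp8* as the exception. Of the 50 higher genes, 21 (42%) were called higher again, 0 lower, and 50 had the same sign. The 2 P+B libraries lay below both PFI-3 libraries in 97 of the 106, against 18.9% of all genes, and above them in 39 of the 50, against 23.8%. The median log2 fold change was −0.91 for the first set and 0.63 for the second.

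*Misp* had 19 and 16 with PFI-3 and 5 and 2 with P+B, and *Krt18* had 66 and 51 against 27 and 20. *Pcolce* had 255 and 245 against 122 and 121, and *Pecam1* had 49 and 47 against 25 and 25, so the drop of these 4 genes was present with both partners. *Cdkn1a* had 96 and 73 with PFI-3 against 131 and 137 in P+B (a difference of 0.67, limma, adjusted p = 0.0189), and *Btg2* had 20 and 13 against 36 and 38 (1.15, adjusted p = 0.0163 in limma). Of the 27 genes of the p53 list, 8 were called higher and 1, *Plk3*, lower in these libraries, and the median was 0.57. Other rises were smaller there and not called: *Alg8* had 12 and 10 with PFI-3 and 12 and 11 with P+B, and *Scn8a* had 5 and 7 against 7 and 8. The difference between the 2 effects did not pass for either (limma, adjusted p = 0.794 and 0.818). Also *Senp8*, with 10 and 11 with DMSO and 3 and 5 with BI-9564, had 8 and 9 with PFI-3 and 8 and 10 in the P+B libraries, which overlap.

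**Figure D5:**
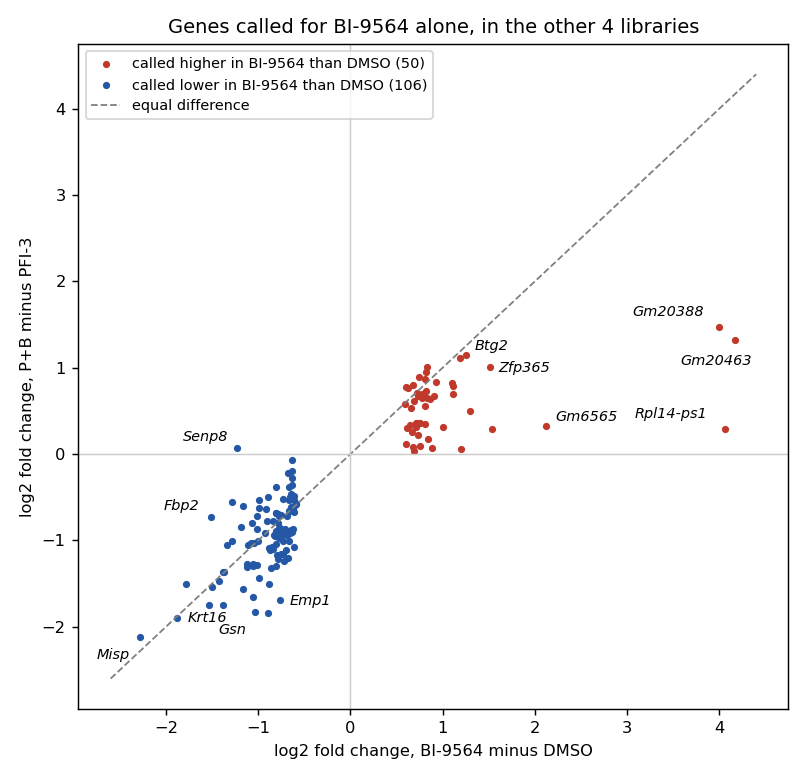
Log2 fold change between BI-9564 and DMSO on the x axis and between P+B and PFI-3 on the y axis for the 156 called genes, 1 point per gene, with 50 higher genes in red, 106 lower genes in blue and a dashed line where both differences are equal. The blue points lie along the line, with *Senp8* above 0 on the y axis, and the 4 largest rises lie well below the line.

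The test of the difference between the effect of BI-9564 with and without PFI-3 called 0 genes in limma (0%), with a smallest adjusted p-value of 0.672 and 588 genes at an unadjusted p-value under 0.05, or 333 without the block. With 2 libraries per group this leaves wide limits for single genes and does not show that the effects are alike. For *Fosl1* the log2 fold change was −0.68 for BI-9564 against DMSO and −1.53 for P+B against PFI-3. For *Anxa1* these were −0.42 and −0.96. Both JUN targets were called lower for P+B against PFI-3 and not for BI-9564 against DMSO, while the difference itself did not pass. BI-9564 alone differed from PFI-3 alone by 0.12 for *Fosl1* and 0.40 for *Anxa1*, and neither was called.

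Compared directly with PFI-3, 51 genes were higher with BI-9564 (0.499%) and 100 lower (0.978%), or 3 and 8 without the block. The doses are not given in the labels, so these are differences between the libraries as treated, and the comparison shares its BI-9564 libraries with the one against DMSO. Of the 106 genes lower than with DMSO, 40 were also called lower than with PFI-3 and 66 were not. Of the 50 higher genes, 19 were called higher again and 31 were not. Among the largest falls, *Krt16*, *Tgm2*, *Aim1l* and *Fbp2* were not called lower than with PFI-3. *Misp*, *Krtdap*, *Zbtb32*, *Ddc*, *Bcl3*, *Gm13128* and *Gm7325* were. The 2 compounds differed in the p53 list, of which 8 of 27 genes were higher with BI-9564 and 0 lower, with a median difference of 0.57. *Cdkn1a* had 96 and 73 with PFI-3 against 148 and 141 for BI-9564 (a log2 difference of 0.78, 95% interval 0.52 to 1.04, limma, adjusted p = 0.0251), and *Btg2* had 20 and 13 against 40 and 33 (1.12, 0.70 to 1.55). Both BI-9564 libraries were above both PFI-3 libraries.

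The naive pluripotency list also separated the compounds, with 9 of 26 genes lower with BI-9564 than with PFI-3, 0 higher and a median difference of −0.51. Of all tested genes 0.978% were called lower and 0.499% higher. Against DMSO the median of this list was −0.17, so the gap lay partly between PFI-3 and DMSO. *Esrrb*, chosen after its values were seen, had 128 and 110 with PFI-3, 86 and 58 with DMSO and 76 and 54 with BI-9564. *Pecam1* was not raised by PFI-3, with 49 and 47 against 53 and 53 with DMSO. *Pecam1* differed by −0.78 (95% interval −1.02 to −0.54) and *Fgf4*, with 55 and 53 with PFI-3 against 31 and 17, by −1.20 (−1.65 to −0.75). *Tdgf1*, of the formative and primed list, had 221 and 196 against 101 and 76, a difference of −1.24 (−1.49 to −0.99, limma, adjusted p = 0.00949). For *Fgf4* and *Tdgf1* both DMSO libraries lay between the PFI-3 and the BI-9564 libraries. On the list of the amino acid stress response (ATF4), 5 of 25 genes were lower with BI-9564 than with PFI-3 and 0 higher, against 0.978% and 0.499% of all tested genes. *Trib3*, a pseudokinase of that response, had 50 and 65 with PFI-3, 44 and 39 with DMSO and 21 and 23 with BI-9564, and was called lower against both.

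Of 38 adhesion genes 1, *Tns3*, was lower with BI-9564 than with PFI-3, and of 23 matrix genes 0 were called, against 0.978% of all tested genes called lower. *Spp1* had 565 and 414 with PFI-3 against 364 and 297 with BI-9564, a log2 difference of −0.56 (95% interval −0.69 to −0.42) with an adjusted p-value of 0.0119 in limma that was under the fold threshold. *Itga5* had 54 and 76 against 42 and 54 (−0.42, −0.65 to −0.19, limma, adjusted p = 0.0757), and *Timp1* had 154 and 119 against 113 and 115 (−0.25, −0.54 to 0.05). For *Spp1* and *Itga5* the interval lay below 0. *Itga3* had 35 and 40 against 36 and 39 (a log2 difference of 0.00, 95% interval −0.31 to 0.32). Outside both lists, *Krt8* had 101 and 81 against 97 and 69 (−0.14, −0.42 to 0.13). *Hbegf* had 22 and 15 against 19 and 15 (−0.10, −0.45 to 0.25). The intervals leave room for differences of up to the limits given. *Jun* was higher with BI-9564 than with PFI-3, at 2071 and 3011 against 1570 and 2227, a log2 difference of 0.42 (limma, adjusted p = 0.00961) that was under the fold threshold.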

How the data were processed

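RNA was measured in 8 libraries of JUN TetON ESCs. For each gene the authors deposited a score, TPM made whole numbers (sums of 991574 to 991897). The submitters' processing notes name bcl2fastq, Bowtie2 2.2.5, RSEM 1.3.0 and mm10, and the study names DESeq2, which needs counts and was not run. Of 50600 rows, 94 repeat a name, 27 are named as dates and 33075 are at 0 throughout. Depth is unknown, and strand in the counting is not given in the sources used here.

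Values were fitted as log2(value + 1), for genes with a mean of at least 5, with limma 3.58.1 in R 4.3.3 (lmFit, eBayes with a trend). All 4 groups entered, with the replicate number as a block (3 residual degrees of freedom), and p-values were adjusted by Benjamini-Hochberg. A called gene had an adjusted p-value below 0.05 and changed 1.5-fold or more. Same-numbered libraries were taken as pairs beforehand. The difference between replicate 1 and 2 correlated weakly across genes in all 6 pairs of groups (r = 0.143 to 0.236). An exact permutation test of 2 libraries against 2 could not go below p = 0.333 and was not used. Positions are from GENCODE M21 (GRCm38), and promoters from RefSeq (GRCm38.p6), where 105 of the 156 called genes had at least 1. The first one listed for a gene was used.

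The comparison, the gene lists and the promoter motifs were chosen with earlier results of these data known. Named genes are the 12 largest rises and falls among called genes that changed the same way in both pairs, genes called with and without the block, all tested BAF subunits and JUN targets, and up to 4 called members of each other list, or its 2 largest changes where fewer than 2 were called. *Jun* is given as the induced gene, and some genes that the rule names are not reported here. Alternatives were no block, pseudocounts of 0.5 and 5, filters of 1, 20 and none, quantile normalization, median centring, no trend, a fit of the compared libraries alone, calls without the fold threshold or at an adjusted p-value below 0.01, and leaving out each library.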

Additional observations from a re-analysis of the deposited data

How the results depend on the processing

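The direction of the 48 named genes that were called was kept under every alternative that was run, and their calls were not. All of these genes had the same sign in both pairs in the main fit. The kept direction follows largely from that and is not separate evidence. For BI-9564 against DMSO, 156 genes were called with the replicate block and 11 without it. There were 41 with a filter of a mean of at least 1, 0 with no filter (2720 at an unadjusted p-value under 0.05), 0 in limma without a trend (2045), 0 with only the 4 libraries compared (1763), 284 with no fold threshold and 1 at an adjusted p-value under 0.01. For P+B against PFI-3 the 351 became 134 without the replicate block, 231 with a mean of at least 1, 61 with no filter, 149 without a trend, 0 with only the libraries compared (1863), 574 with no fold threshold and 104 at 0.01. For BI-9564 against PFI-3 the 151 became 11 without the replicate block, 37, 0 with no filter (2558), 0 without a trend (1908), 0 with only the libraries compared (1701), 257 and 6. Leaving out 1 library gave 0 to 1 genes for BI-9564 against DMSO, 0 to 214 for P+B against PFI-3, 0 to 1 for BI-9564 against PFI-3 and 0 to 1 for the interaction, where at most 2 residual degrees of freedom are left. The cause of the other losses was not tested. Pseudocounts of 0.5 and 5, a mean of at least 20, quantile normalization and median centring gave 135 to 203 for BI-9564 against DMSO, and the median of the p53 list was 0.41 to 0.59 in all alternatives.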

Other observations

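Of the 27 lists, 9 held a called gene and 18 held none, and the 18 had medians between −0.42 and 0.09. Of all tested genes, 0.489% were called higher and 1.04% lower. Of 39 tested genes of G2/M and mitosis 1 was called higher, against 0.489% of all tested genes. This was *Cdc25c*, the phosphatase that starts mitosis, with 16 and 15 with DMSO and 27 and 24 with BI-9564 (0.68 ± 0.13, limma, adjusted p = 0.0462), and *Cenpe* of that list had 30 and 23 against 50 and 35 and did not pass. Of 38 tested genes of G1/S and DNA replication 0 were called, with *Ccnd1*, cyclin D1, at 40 and 54 against 29 and 29 (limma, adjusted p = 0.0711) and *Rb1* at 7 and 6 against 10 and 10. Of 25 genes of the amino acid stress response 1, *Sesn2*, was called higher and 1, *Trib3*, lower, and the median was −0.11. Of 15 genes of the BET and P-TEFb list 0 were called, its largest changes were those of *Fosl1* and *Ccnd1*, and *Brd2*, a BET protein chosen after its values were seen, had a log2 difference of 0.46 under the fold threshold.

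The other lists without a call are given by their median and their 2 largest changes, which did not pass in limma. Some smaller changes had an adjusted p-value under 0.05 in limma but not the fold. These were 4 hypoxia, 4 endoplasmic reticulum, 3 MYC, 1 YAP-TEAD and 1 ribosomal protein list genes, against 284 of all tested genes at any fold. The MYC network and ribosome biogenesis list (33 tested) had a median of −0.14, with *Mxd4* at 1.13 and *Mxd3* at 0.82, both MAX partners that oppose MYC. *Mxd4* was low, with 3 and 3 with DMSO and 10 and 6 with BI-9564. The YAP-TEAD list (17) had −0.09, with *Ptpn14* at 0.79 and *Lats2* at 0.54. The Wnt, Nodal, BMP and TGF-beta list (16) had 0.08, with *Id3* at 0.72 and *Lefty2* at −0.68. The list of histone acetylation and methylation enzymes (37) had −0.00, with *Ezh1* at 0.72 and *Kat5* at 0.32. Sterol synthesis (36) had 0.08, with *Elovl6* at −0.46 and *Scap* at 0.45, and the lysosome list (34) −0.00, with *Mitf* at −0.83 and *Flcn* at 0.48. Endoplasmic reticulum stress and heat shock (27) had −0.15, with *Hspa1b* at 0.65 and *Xbp1* at −0.56, and the NRF2, metallothionein and AHR list (19) −0.10, with *Srxn1* at −0.54 and *Slc30a1* at 0.52. Hypoxia and glycolysis (27) had −0.07, with *Vegfa* at 0.89 and *Ndrg1* at −0.50, and interferon response (17) −0.05, with *H2-D1* at 0.51 and *Oas1a* at −0.49. *Vegfa*, with 6 and 1 against 5 and 7, and *H2-D1*, with 6 and 8 against 15 and 7, were low and differed in sign between the pairs. Oxidative phosphorylation (31) had 0.01, with *Ndufa2* at 0.25 and *Cox6c* at −0.20, and cytosolic ribosomal proteins (34) 0.03, with *Rpl10a* at −0.19 and *Rplp1* at 0.18. The two-cell-like list (6) had a median of −0.34, with all 6 below 0. *Zscan4e* of that list had 4 and 24 with DMSO and 3 and 17 with BI-9564, so it differed between library 1 and library 2 in both groups, and *Eif1a* had 85 and 86 against 70 and 58.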
